A study of Mus musculus with 6 samples.

Results

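Fatty acid and triglyceride synthesis was followed in mouse liver through 33 genes, taken as a named list of the enzymes, carriers and regulators of the pathway. A gene entered through any non-control probe whose transcript accession maps to it, and the probe with the highest mean over the arrays stood for the gene. All 33 genes were found and were well above background on all 6 arrays, out of 21064 genes and unnamed transcripts tested. RNA of whole liver was hybridised to single-colour Agilent arrays, 1 array per sample. The control group held 3 samples labelled control wild type, and the sMaf CKO group held 3 samples labelled liver-specific small Maf knockout. All mice were 5 weeks old, were on a mixed background of 129Sv/J, C57BL/6J and ICR, and had free access to chow. The labels name neither the small Maf genes that were deleted, nor the Cre driver, the sex, or the hour and feeding state at collection. The RNA samples of a genotype are described as independent, and whether each came from its own animal is not said, so a p-value here measures the spread between these samples.

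The pathway turns surplus carbon into stored fat. Citrate leaves the mitochondrion and is split to acetyl-CoA, which is carboxylated to malonyl-CoA and condensed to palmitate. Elongases lengthen the chain and desaturases place double bonds in it, the same families acting on essential fatty acids from the diet, and acyltransferases then load the chains onto glycerol. In hepatocytes the transcription factors SREBP-1 (gene Srebf1) and ChREBP (gene Mlxipl) raise many of these genes after feeding. Small Maf proteins are bZIP factors that bind DNA as partners of CNC factors such as NRF2.

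Each value is a log2 signal from which the 75th percentile of its own array was subtracted, and a difference is sMaf CKO minus control. A level describes a gene against itself across arrays and not against another gene, since probes differ in efficiency. The 75th percentile of the signal lay between 483.4 and 609.3 on control arrays and between 484.4 and 960.5 on sMaf CKO arrays. The highest value was that of sMaf CKO array 1. Across genes, r was 0.970 to 0.984 for pairs of arrays within a genotype and 0.953 to 0.980 for pairs across genotypes. Replicates 1 and 2 of both genotypes shared slide 1 and replicate 3 of both lay on slide 2, so a value within slide 2 compares 1 array with 1. Of the small Maf genes, Mafg was at 1.88, 1.87 and 2.23 on control arrays 1, 2 and 3 and at -2.97, -4.36 and -0.76 on sMaf CKO arrays 1, 2 and 3. Its groups do not overlap, and sMaf CKO array 3 kept the highest share of the control mean (14.8%). The difference was -4.69 (SE 0.79, adjusted p = 0.0534 by limma, or 0.0208 with slide as a block). Maff differed by 0.15 (SE 0.51) and Mafk by 0.21 (SE 0.29), and whether these probes lie in a deleted part is not known. Xist was well above background on all 6 arrays and the Y-linked genes Ddx3y, Kdm5d and Uty on none of them. Eif2s3y was above background on 1 array.

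Signal for most of the pathway was lower in sMaf CKO liver, and Elovl3, Thrsp and Acss2 had the most negative differences. Fads3 had the most positive difference, a signal 3.31-fold higher, and 5 other genes were positive by less (Scd2, Elovl1, Agpat1, Pnpla3 and Agpat3). Of the 33 genes, 27 had a negative difference (81.8%, against 54.7% of all genes tested), and their median was -0.57 against -0.053 over all genes. The groups did not overlap for 13 of them. All 3 sMaf CKO arrays lay below all 3 control arrays for 12 genes (36.4%, against 11.6% of all genes) and above them for 1 gene, Fads3 (3.03%, against 11.3%). Differences below -1 were found for 5 genes (15.2%, against 3.77% of all genes) and above 1 for 1 gene (3.03%, against 5.12%). At an unadjusted p under 0.05 there were 12 genes (36.4%, against 16.8% of all genes), of which 11 were lower (33.3%, against 8.1%) and 1 was higher (3.03%, against 8.72%). After Benjamini-Hochberg adjustment 0 of the 33 genes passed limma's test, where 0.541% of all genes passed, 0.157% lower and 0.385% higher. Elovl3 and Fads3 came closest, both with an adjusted p of 0.0606 by limma, and they were the 2 genes under an adjusted p of 0.10 (6.06%, against 2.26% of all genes). A slide block in the limma fit brought both past the threshold (adjusted p = 0.0354 and 0.0324), 2 of 33 genes where 1.61% of all genes passed. In bulk tissue, fewer cells of a type and less RNA per cell cannot be told apart.

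The size of the shift differed between slides and rested strongly on sMaf CKO array 1. On slide 1 the median of the pathway was -0.64 and on slide 2 it was -0.24, while the slide block left it at -0.57. Within both slides, 23 genes were negative (69.7%, against 36.3% of all genes) and 4 were positive (12.1%, against 32.6%). sMaf CKO array 1 was the lowest of the 6 arrays for 22 of the 33 genes (66.7%, against 29% of all genes), and control array 1 was the highest for 16 (48.5%, against 21.8%). Without sMaf CKO replicate 1 the median was -0.27 and 23 genes were negative. Array weights, which counted sMaf CKO arrays 1, 2 and 3 at 0.674, 2.329 and 0.5, gave a median of -0.37. Without control replicate 1 it was -0.39. Under quantile normalization it was -0.40 and 25 genes were negative. With spike-in scaling the median of all genes moved to 0.27 and that of the pathway to -0.24, since it shifts every gene alike. The distance of the pathway's median from that of all genes was -0.51, and it was -0.25 without sMaf CKO replicate 1 and -0.26 within slide 2. This distance was -0.41 under quantile normalization and -0.33 without control replicate 1.

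**Figure D1:**
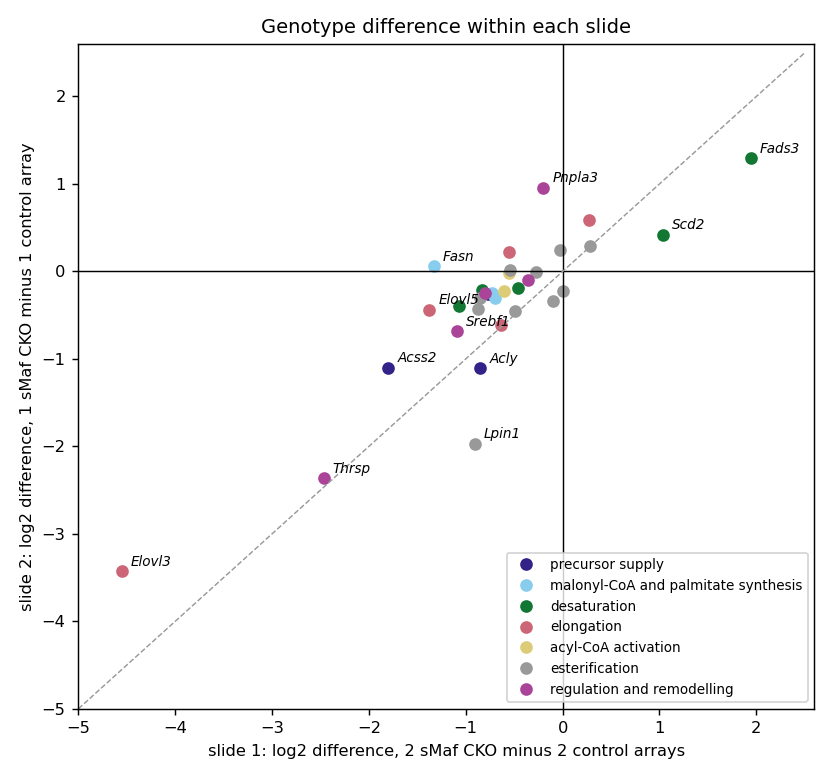
Each point is 1 of the 33 genes, coloured by step, with the log2 difference (sMaf CKO minus control) within slide 1 (2 arrays a group) on the x axis and within slide 2 (1 array a group) on the y axis; the dashed line marks equal differences. Elovl3 and Thrsp lie far down in both slides and Fads3 far up in both, whereas Fasn was -1.33 within slide 1 and 0.057 within slide 2.

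Precursor supply was lower at all 3 steps, with a median of -0.94 (-0.85 within slide 1 and -1.10 within slide 2). Acss2, the cytosolic and nuclear enzyme that makes acetyl-CoA from acetate, was at 5.34, 3.72 and 3.63 on control arrays 1, 2 and 3 and at 2.03, 3.43 and 2.53 on sMaf CKO arrays. The groups do not overlap, but control array 1 stands well above the others and sMaf CKO array 2 lies just under the lower controls. The difference was -1.57 (SE 0.54, adjusted p = 0.216 by limma, 95% interval -2.81 to -0.32), and -1.01 without control replicate 1 or -1.04 with array weights. Its other probe gave -1.80. Acly, ATP citrate lyase, was at 2.65, 2.40 and 1.85 on control arrays and at 1.20, 2.16 and 0.75 on sMaf CKO arrays, where array 2 falls inside the control range. It differed by -0.94 (SE 0.40, adjusted p = 0.290 by limma), and by -0.45 with array weights. Slc25a1, the mitochondrial citrate carrier, was at 4.26, 3.57 and 3.72 on control arrays and at 2.93, 3.36 and 3.45 on sMaf CKO arrays. These groups do not overlap either, with a difference of -0.60 (SE 0.27, adjusted p = 0.314 by limma) that was -0.39 without control replicate 1.

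Neither carboxylase nor the synthase that makes palmitate parted the genotypes. Acaca, the cytosolic acetyl-CoA carboxylase that feeds synthesis, was at 1.19, 1.03 and 0.26 on control arrays and at 0.14, 0.68 and -0.053 on sMaf CKO arrays. It differed by -0.57 (SE 0.32, 95% interval -1.32 to 0.18), or by -0.26 with array weights, and its 3 dimmer probes gave -0.49, -0.21 and -0.13. Acacb, the mitochondrial carboxylase whose product restrains fatty acid oxidation, differed by -0.57 (SE 0.37), and by -0.22 without sMaf CKO replicate 1 or -0.32 without control replicate 1. Fasn, fatty acid synthase, was at 7.29, 6.88 and 6.30 on control arrays and at 4.67, 6.85 and 6.36 on sMaf CKO arrays. Only sMaf CKO array 1 was below the control range, at 22.4% of the control mean, whereas arrays 2 and 3 kept 101.7% and 72.4%. The difference of -0.87 (SE 0.56, adjusted p = 0.470 by limma, 95% interval -2.16 to 0.43) became -0.22 without that array, and it was -0.96 by the gene's other probe. The step as a whole had a median of -0.57, or -0.73 within slide 1, -0.24 within slide 2 and -0.22 without sMaf CKO replicate 1.

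Desaturases differed in opposite directions. Fads1 and Fads2, the front-end desaturases of polyunsaturated fatty acid synthesis, were lower, and Fads3, a relative linked to the desaturation of sphingoid bases, was higher. These 3 genes are consecutive protein-coding genes on chromosome 19. Fads1 was at 4.72, 4.34 and 3.98 on control arrays and at 3.32, 3.60 and 3.58 on sMaf CKO arrays. Its groups do not overlap, with sMaf CKO levels of 49.2%, 59.9% and 58.9% of the control mean, a difference of -0.84 (SE 0.25, adjusted p = 0.177 by limma) and -0.39 within slide 2. Fads2 was at 4.67, 4.46 and 4.35 on control arrays and at 3.50, 3.98 and 4.14 on sMaf CKO arrays, again without overlap. It differed by -0.62 (SE 0.24, adjusted p = 0.264 by limma), or -0.83 within slide 1 and -0.21 within slide 2. Fads3 was at 0.20, -0.29 and -0.24 on control arrays and at 2.08, 1.72 and 1.06 on sMaf CKO arrays. All sMaf CKO arrays lay above all controls, at 454.5%, 354.9% and 224.2% of the control mean. The difference was 1.73 (SE 0.31, adjusted p = 0.0606 by limma, 95% interval 1.01 to 2.44), its second probe gave 1.87, and slides 1 and 2 gave 1.94 and 1.29. Over the alternatives its adjusted p ran from 0.0200 with array weights to 0.335 with spike-in scaling.

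The stearoyl-CoA desaturases, which place the first double bond in saturated chains, did not pass limma's test. Scd1, the main form of adult liver, was at 7.64, 6.60 and 6.62 on control arrays and at 6.80, 6.53 and 6.43 on sMaf CKO arrays. Apart from the high control array 1 the groups lie together, with a difference of -0.37 (SE 0.32, 95% interval -1.12 to 0.38) that was -0.025 without control replicate 1 and 0.034 under quantile normalization. Scd2, a form known from brain and developing liver, was at 0.010, 1.13 and 0.17 on control arrays and at 1.11, 2.11 and 0.59 on sMaf CKO arrays, a difference of 0.83 (SE 0.45, adjusted p = 0.397 by limma) that was 0.41 without sMaf CKO replicate 2. Control array 2 overlaps the sMaf CKO range. Scd1 and Scd2 have close paralogs beside them on chromosome 19, and cross-reading of these by the probes was not tested. Over the 5 desaturases the median was -0.37, with 3 negative and 2 positive differences.

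**Figure D2:**
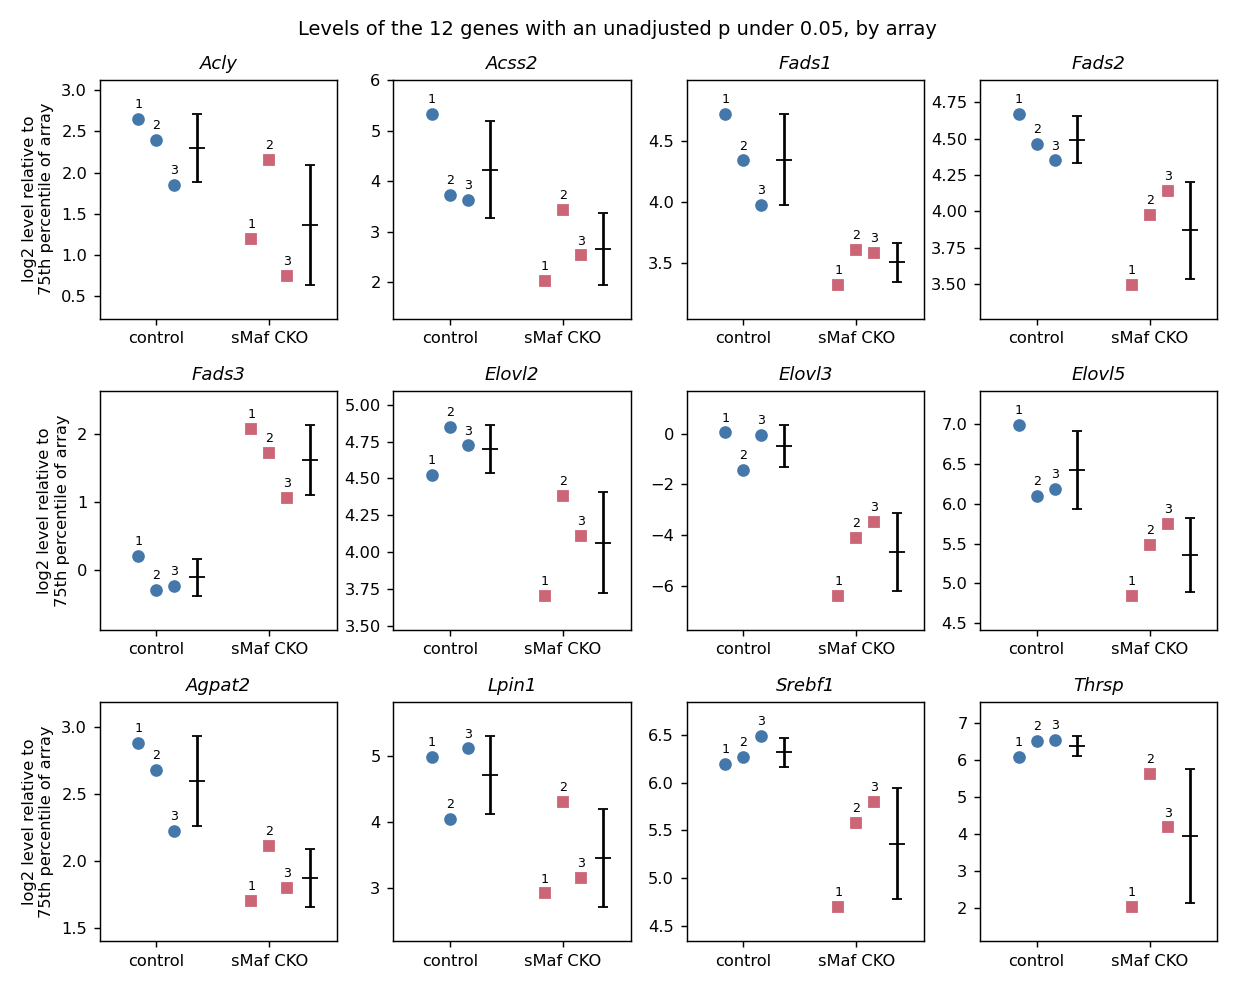
Each panel plots 1 of the 12 genes with an unadjusted p under 0.05, with the log2 level (75th percentile subtracted) on the y axis, a point per array labelled by replicate number, and the mean ± SD of 3 arrays to the right of the points. Fads3 is the single panel in which sMaf CKO arrays lie above control arrays, and the groups overlap in the panels of Acly and Lpin1.

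Elongation held the most negative difference of the pathway. Elovl3, an elongase of very long saturated and monounsaturated chains that is known for a strong daily rhythm in mouse liver, was at 0.050, -1.43 and -0.062 on control arrays and at -6.38, -4.11 and -3.49 on sMaf CKO arrays. No sMaf CKO array reached the lowest control, and they kept 1.67%, 8.11% and 12.4% of the control mean. The difference was -4.18 (SE 0.75, adjusted p = 0.0606 by limma, 95% interval -5.92 to -2.44), an 18.1-fold lower signal. Slides 1 and 2 gave -4.55 and -3.43, and the difference lay between -4.76 and -3.32 when each array was left out in turn. With normexp background correction, which adds an offset to every spot and so shrinks differences between dim signals most, it was -2.41. Over the alternatives its adjusted p ran from 0.0271 with array weights to 0.221 without control replicate 1.

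Elovl5 and Elovl2, which lengthen polyunsaturated chains after the steps of Fads2 and Fads1, were lower together with those desaturases. Elovl5 was at 6.99, 6.10 and 6.18 on control arrays and at 4.85, 5.48 and 5.75 on sMaf CKO arrays, with no overlap. It differed by -1.06 (SE 0.34, adjusted p = 0.194 by limma), its other probe by -1.15, and the difference was -1.38 within slide 1 and -0.44 within slide 2. Elovl2 was at 4.52, 4.85 and 4.72 on control arrays and at 3.71, 4.38 and 4.11 on sMaf CKO arrays, again with no overlap. Its difference of -0.63 (SE 0.25, adjusted p = 0.262 by limma) was nearly equal within the slides, at -0.64 and -0.61. Elovl6, which carries palmitate on to stearate, differed by -0.29 (SE 0.33), or by 0.037 without sMaf CKO replicate 1, and its sMaf CKO arrays 2 and 3, at 2.79 and 2.74, lay within the control range of 2.52 to 3.05. Elovl1, an elongase of very long saturated chains, differed by 0.38 (SE 0.22) with overlapping groups. The median of the 5 elongases was -0.63 (-0.64 within slide 1 and -0.44 within slide 2), and its mean score over genes kept all sMaf CKO arrays below all controls. The same held for precursor supply and for the whole list, and for none of the other 5 steps.

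**Figure D3:**
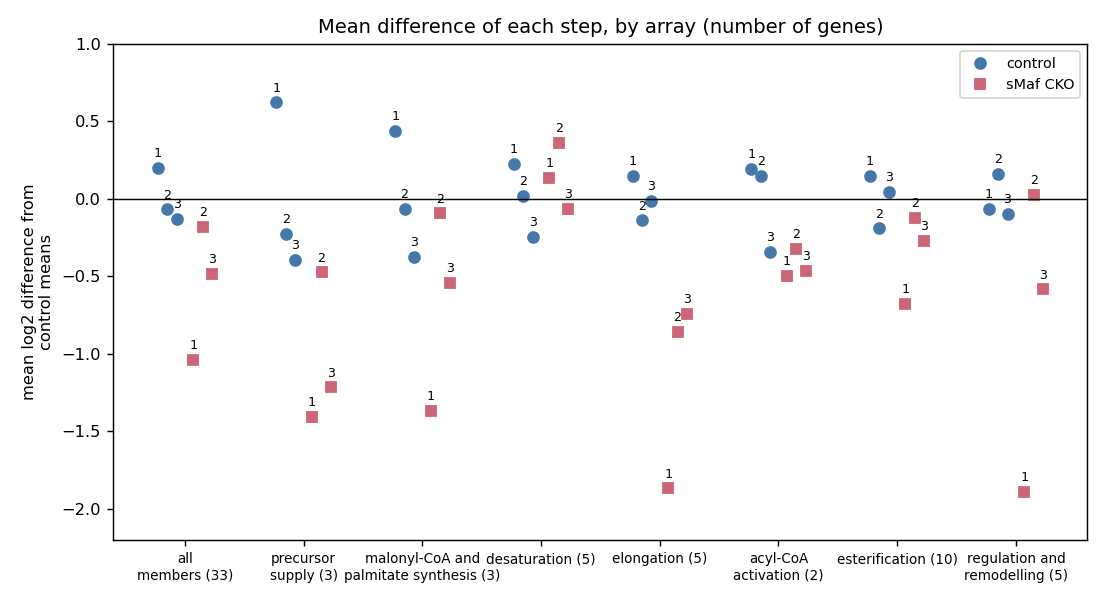
For every step, with its number of genes in brackets, points give the mean log2 difference of its genes from their control means (y axis) on each array, labelled by replicate number. For elongation the control arrays lie between -0.14 and 0.15 and the sMaf CKO arrays at -1.87, -0.86 and -0.74, whereas for desaturation the genotypes overlap.

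Both acyl-CoA ligases on the list were slightly lower in mean signal. Acsl5, a ligase of liver and gut, was at 6.20, 5.33 and 5.24 on control arrays and at 5.18, 5.13 and 5.02 on sMaf CKO arrays, so the groups do not overlap but 2 controls lie close to the sMaf CKO arrays. It differed by -0.48 (SE 0.29, adjusted p = 0.452 by limma), by -0.17 without control replicate 1 and by -0.17 under quantile normalization. Acsl3, a ligase found on lipid droplets, differed by -0.38 (SE 0.29), with overlapping groups, and by -0.096 without control replicate 2. Their median was -0.43, or -0.58 within slide 1 and -0.12 within slide 2.

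The 10 esterification genes had a median of -0.27 (-0.38 within slide 1 and -0.26 within slide 2), and 8 of the 10 were negative. Lpin1, a phosphatidate phosphatase that makes diacylglycerol and also acts as a nuclear coregulator, was at 4.99, 4.04 and 5.12 on control arrays and at 2.91, 4.31 and 3.15 on sMaf CKO arrays. The groups overlap through control array 2 and sMaf CKO array 2, while sMaf CKO arrays 1 and 3 kept 28.7% and 33.7% of the control mean. The difference was -1.26 (SE 0.44, adjusted p = 0.224 by limma), its other probes gave -1.31 and -1.35, and it was larger within slide 2 (-1.97) than within slide 1 (-0.90). Agpat2, a lysophosphatidate acyltransferase whose loss causes lipodystrophy, was at 2.88, 2.68 and 2.23 on control arrays and at 1.70, 2.11 and 1.80 on sMaf CKO arrays. Its groups do not overlap, and both probes gave like differences, -0.72 (SE 0.25, adjusted p = 0.223 by limma) and -0.75.

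The enzymes that add the last acyl chain to make triglyceride did not pass either. Dgat1 was at 1.37, 0.87 and 1.08 on control arrays and at 0.51, 0.74 and 0.62 on sMaf CKO arrays, without overlap, a difference of -0.48 (SE 0.22, adjusted p = 0.323 by limma; -0.47 by its other probe). Dgat2, the form tied to newly made fatty acids in liver, was at 7.77, 7.59 and 8.01 on control arrays and at 6.26, 7.38 and 7.71 on sMaf CKO arrays. The difference of -0.67 (SE 0.38, 95% interval -1.56 to 0.21) rested on sMaf CKO array 1 and was -0.25 without it, and the gene's other probes gave -0.84 and -0.94. Gpam, the mitochondrial acyltransferase that starts glycerolipid synthesis, differed by -0.35 (SE 0.33), or by -0.067 without control replicate 1. Mogat1, a monoacylglycerol acyltransferase, differed by -0.18 (SE 0.26), or by 0.028 without sMaf CKO replicate 1. Lpin2 and Lpin3, the other lipins, differed by -0.18 (SE 0.20) and -0.071 (SE 0.22), with intervals of -0.65 to 0.29 and -0.59 to 0.45. Lpin2 turned positive with quantile normalization (0.14) and with spike-in scaling (0.15). The acyltransferases Agpat1 (0.29, SE 0.25) and Agpat3 (0.061, SE 0.25) were positive by the brighter probe and negative by the other, at -0.42 and -0.27. They were the 2 of 14 genes with several probes whose probes disagreed in sign.

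**Figure D4:**
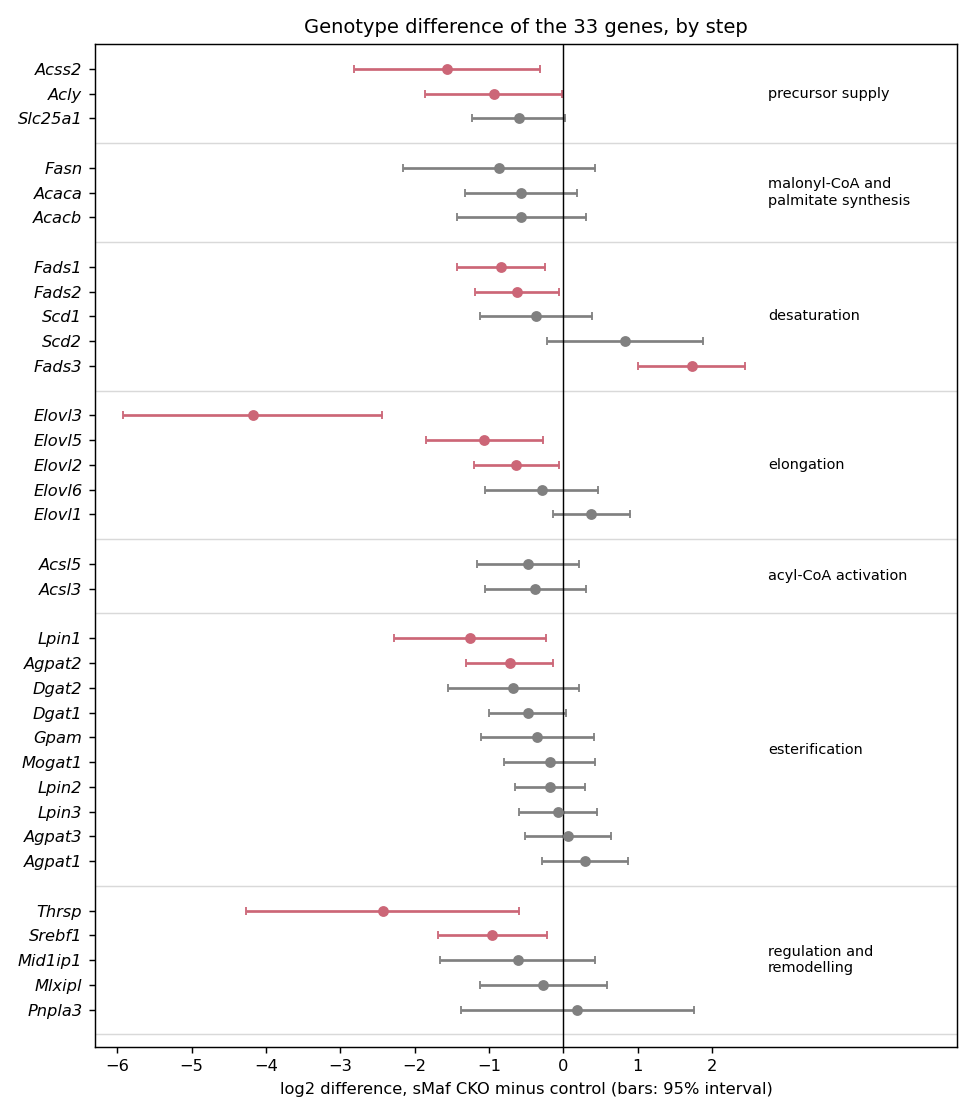
Points give the log2 difference (sMaf CKO minus control, x axis) of each of the 33 genes grouped by step, bars its 95% interval from limma, and red marks an unadjusted p under 0.05. Most points lie left of 0 and most intervals include it. Elovl3 (-4.18) and Fads3 (1.73) stand farthest from the rest in either direction.

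None of the 5 genes of the regulation and remodelling step passed limma's adjusted test. Srebf1 and Thrsp were the 2 with an unadjusted p under 0.05, both with a lower signal. The median of the step was -0.61, and -0.063 without sMaf CKO replicate 1. Srebf1 was at 6.19, 6.26 and 6.49 on control arrays and at 4.70, 5.57 and 5.80 on sMaf CKO arrays. The controls were tight (SD 0.15) and no sMaf CKO array reached them, at 32.7%, 59.9% and 70.0% of their mean. It differed by -0.96 (SE 0.31, adjusted p = 0.202 by limma), by -1.09 within slide 1 and -0.68 within slide 2, and by -0.63 without sMaf CKO replicate 1 or -0.60 under quantile normalization. A single probe read the gene, so its isoforms were not separated. Mlxipl was at 4.91, 5.01 and 5.24 on control arrays and at 3.94, 5.28 and 5.14 on sMaf CKO arrays, a difference of -0.27 (SE 0.37, 95% interval -1.13 to 0.59) that was 0.15 without sMaf CKO replicate 1. Thrsp, the Spot 14 protein of lipogenic tissues, was at 6.08, 6.53 and 6.55 on control arrays and at 2.04, 5.64 and 4.19 on sMaf CKO arrays. The sMaf CKO arrays lie below every control but far from each other, at 4.92%, 59.4% and 21.8% of the control mean. The difference was -2.43 (SE 0.79, adjusted p = 0.199 by limma, 95% interval -4.27 to -0.60), or -1.48 without sMaf CKO replicate 1, and slides 1 and 2 gave -2.47 and -2.36. Its relative Mid1ip1, which activates acetyl-CoA carboxylase, was 30.4% of the control mean on sMaf CKO array 1 and 95.8% and 95.6% on the others (-0.61, SE 0.45, or -0.063 without array 1). Pnpla3, a lipid droplet protein that is induced by feeding, had the widest spread of the 33 genes among controls (SD 1.05) and differed by 0.19 (SE 0.67, 95% interval -1.38 to 1.75).

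Promoter sequences were read from RefSeq (GRCm38.p6) for 27 of the 33 genes, as the 250 bases before each annotated start. The 4 windows shown were chosen after the values were seen, from genes with large differences. Those of Acss2 and Fads3 hold the core of the antioxidant response element read by CNC and small Maf dimers, that of Elovl5 holds an E-box, and Thrsp had the most negative difference among the genes with a window. Bases matched by any motif searched are in capitals.
Acss2, chr2:155517793-155518042, plus strand: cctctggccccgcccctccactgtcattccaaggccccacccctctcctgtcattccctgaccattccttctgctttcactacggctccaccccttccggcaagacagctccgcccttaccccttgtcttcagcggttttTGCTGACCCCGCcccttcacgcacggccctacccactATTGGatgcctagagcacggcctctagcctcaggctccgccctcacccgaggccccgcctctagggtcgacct
Fads3, chr19:10041298-10041547, plus strand: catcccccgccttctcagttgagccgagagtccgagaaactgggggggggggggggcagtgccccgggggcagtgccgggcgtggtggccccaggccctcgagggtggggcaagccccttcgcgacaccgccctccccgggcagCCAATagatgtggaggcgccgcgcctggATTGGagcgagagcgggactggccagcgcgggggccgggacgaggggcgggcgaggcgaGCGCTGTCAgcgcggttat
Elovl5, chr9:77917115-77917364, plus strand: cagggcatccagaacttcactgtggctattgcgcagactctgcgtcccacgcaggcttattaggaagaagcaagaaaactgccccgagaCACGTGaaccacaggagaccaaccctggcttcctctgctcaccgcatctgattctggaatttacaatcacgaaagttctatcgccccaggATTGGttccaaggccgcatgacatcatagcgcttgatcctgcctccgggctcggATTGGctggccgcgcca
Thrsp, chr7:97417551-97417800, minus strand: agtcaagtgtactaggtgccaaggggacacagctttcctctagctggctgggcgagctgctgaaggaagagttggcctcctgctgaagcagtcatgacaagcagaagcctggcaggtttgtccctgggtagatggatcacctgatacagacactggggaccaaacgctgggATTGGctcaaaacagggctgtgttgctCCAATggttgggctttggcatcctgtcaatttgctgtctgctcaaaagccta

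Motifs were searched on both strands in 37 windows of the 27 genes and in all 32851 windows of the table. The antioxidant response element core, TGACNNNGC, was found in 3 genes, Acss2, Fads3 and Lpin3, or 8.11% of their windows against 10.2% of all windows. These 3 genes differed by -1.57, 1.73 and -0.071, and none of them passed limma's adjusted test. Whether the match bears on these differences was not tested. TGCTGAC, a motif of Maf factors, was found in Acss2 alone, where it overlaps the antioxidant core (2.7% of windows against 3.81%). In Fads3 the core lies on the reverse strand. The E-box CACGTG was found in Elovl5, Lpin2, Mlxipl and Slc25a1 (10.8% of windows against 6.02%). The CCAAT box, bound by NF-Y, was found in 16 genes (45.9% of windows against 33.8%). Of these 16 genes, 4 were lower at an unadjusted p under 0.05, where 33.3% of the 33 genes were. The core TCACNCCAC of the sterol regulatory element was found in 1 window, an alternative start of Mlxipl (2.7% against 1.05%). A match describes letters in these windows and is not a binding site.

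Among 40 further genes of the pathway fixed as a list (carbon supply, the elongation cycle, ligases, acyltransferases and control genes), 37 were tested and 0 passed limma's test. Counted by unadjusted p under 0.05, 13 were lower (8.1% of all genes tested were) and 7 higher (8.72% of all genes), with a median of -0.34. Me1, the malic enzyme that supplies NADPH for synthesis, was at 3.41, 2.79 and 2.37 on control arrays and at -0.35, 1.10 and 0.55 on sMaf CKO arrays. The groups lie far apart, with a difference of -2.43 (SE 0.42, adjusted p = 0.0567 by limma) that passed once slide was a block (adjusted p = 0.0470). Elovl7, an elongase that is low in normal liver, was at -3.57, -2.69 and -3.49 on control arrays and at 0.84, -0.11 and -1.57 on sMaf CKO arrays. It differed by 2.97 (SE 0.58, adjusted p = 0.0770 by limma) and likewise passed with that block (adjusted p = 0.0315). Of the 6 other glycerolipid acyltransferases tested, 5 were positive, with a median of 0.69, and 4 were higher at an unadjusted p under 0.05, again beside 8.72% of all genes. The other groups of this list had negative medians. These were -0.61 for carbon and NADPH supply, -0.57 for desaturation partners, -0.65 for the elongation cycle, -0.22 for ligases and -0.34 for control genes.

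Other genes moved with the pathway on the same arrays, and their part in these differences was not tested. All 11 tested hepatocyte markers were negative (54.7% of all genes were), with a median of -0.59 (-0.68 within slide 1 and -0.29 within slide 2), close to the median of the pathway. Of these markers, as of the 33 genes of the pathway, 0 passed limma's test, beside 0.541% of all genes. Among the 11 markers 3 had an unadjusted p under 0.05, beside 16.8% of all genes. Their summed signal, in units of the 75th percentile of the array, ran from 2350 to 3082 in control and from 1513 to 2655 in sMaf CKO liver. Macrophage markers had a median of 0.85 over 8 genes, with sums of 78.0 to 129.3 in control and 181.9 to 410.2 in sMaf CKO liver. Of these 8 genes 2 passed limma's test, Trem2 and Gpnmb, both higher, beside 0.541% of all genes. Gpnmb was above background on 3 arrays and so entered the test only through the group where it was high. An unadjusted p under 0.05 was found for 5 of the 8, beside 16.8% of all genes. Marco differed by 3.73 (SE 0.77), Adgre1 by 0.45 (SE 0.31) and Csf1r by 0.18 (SE 0.36). Adipocyte markers summed to 9.40 to 10.9 and 13.8 to 20.3, with a median of 0.45 over the 3 tested. Of them Lep and Plin1 were not well above background on any array, and Adipoq only on 2, while Cidec, also a lipid droplet gene of fatty liver, differed by 2.61 (SE 0.50). Sums for bile duct markers were 9.49 to 11.9 and 11.0 to 49.8, for stellate and fibroblast markers 26.4 to 39.0 and 34.3 to 44.5, and for endothelial markers 44.8 to 64.0 and 40.0 to 53.1. For erythroid markers they were 92.3 to 210.5 and 132.1 to 280.7, for neutrophil markers 3.39 to 6.43 and 5.74 to 8.65, and for lymphocyte markers 0.472 to 1.09 and 0.540 to 1.73. Medians of these lists were 0.46, 0.39, -0.21, 0.54, 0.48 and 0.15 in the same order. Of their genes 0 passed limma's test, beside 0.541% of all genes. Those with an unadjusted p under 0.05 were 1 of 6 bile duct and 2 of 7 stellate and fibroblast markers, beside 16.8% of all genes. Most of the highest bile duct sum came from Spp1, at 5.58 on sMaf CKO array 1 and at 2.99 to 3.97 on the other arrays. The bile duct markers Krt19, Krt7, Cftr, Sox9 and Epcam differed by 0.30, 0.17, 0.074, 0.63 and 0.89.

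Of the clock genes, a list chosen after the values of Elovl3 were seen, 2 of 9 loop genes and 0 of 4 output genes passed limma's test. Over all genes tested, 0.541% passed. An unadjusted p under 0.05 was found for 6 of the 9 loop genes and 3 of the 4 output genes, beside 16.8% of all genes. Arntl, the activator of the loop, was at -3.07, -3.38 and -3.78 on control arrays and at -0.51, -1.13 and -1.47 on sMaf CKO arrays, and it rose by limma's test (2.37, SE 0.32, adjusted p = 0.0382). Per3 fell by limma's test, from -1.60, -1.10 and -1.59 on control arrays to -3.35, -2.88 and -3.60 on sMaf CKO arrays (-1.84, SE 0.27, adjusted p = 0.0459). Dbp, a clock output factor, was at 7.17, 6.73 and 7.36 on control arrays and at 4.39, 5.58 and 6.49 on sMaf CKO arrays (-1.60, SE 0.50, adjusted p = 0.188 by limma). Of the 9 loop genes 7 were negative, and of the 4 output genes 3 were, with medians of -0.72 and -1.01. Of all genes tested, 54.7% were negative. The positive loop genes were Arntl and Clock (0.87), and the positive output gene was Nfil3 (0.49). The hour of collection is not in the labels, and whether it differed between the samples was not tested.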

How the data were processed

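Mouse liver RNA, 3 control and 3 sMaf CKO samples, was measured on Agilent arrays. Per the file headers, the authors extracted spot intensities with Feature Extraction 10.7.3.1 (protocol GE1_107_Sep09). The deposited processed intensity had background and spatial trend removed array by array and was not adjusted between arrays. The deposited value table holds log2 values. Set against the scanner files, it equals log2 processed intensity minus the 75th percentile of the array, centred per probe on the median array (r of 0.9996 or more on each array). The column medians of this table were 0.046, -0.020, 0.083, -0.10, -0.11 and 0.092.

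Here, log2 processed intensities of non-control spots without an outlier flag were averaged per probe and the 75th percentile of each array was subtracted. The filter kept 27865 of 41174 probes, those that 3 or more arrays marked as well above background. Accessions named 26690 probes through a RefSeq gene table, while 14484 kept their accession. Per gene the probe with the highest mean was used. limma 3.58.1 in R 4.3.3 compared the genotypes with genotype alone in the model, adjusting p by Benjamini-Hochberg over 21064 genes at 0.05. The script was tested on simulated data. Members, lists (other pathway genes, cell type markers), tests and motifs were chosen with earlier results of these data known. Values on every array are given for genes with an unadjusted p under 0.05, the best-ranked gene of each step and the central genes of the pathway. Other genes given so were chosen after their values were seen.

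Alternatives were normexp (offset 50, on median signals), quantile, median and spike-in scaling, the authors' table, other filters, the mean of probes, replicate and slide blocks, array weights, trended robust eBayes, left-out arrays and an adjusted p under 0.10. The gene order on chromosome 19 and the promoters come from GRCm38.p6 and the array design from mm9, so no probe coordinates are given. The number of arrays limits the precision: an exact permutation test of 3 against 3 cannot go below p = 0.1.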

Additional observations from a re-analysis of the deposited data

How the results depend on the processing

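Over the settings run, 22 of the 33 genes kept their sign throughout. The 114 genes called over the whole array became 74 with normexp, 22 with quantile, 252 with median and 13 with spike-in scaling, 1 with no filter and 269 with probes above background on all arrays. They became 290 with the replicate block, 340 with the slide block, 194 within slide 1, 513 with array weights, 308 with trended robust eBayes, 477 at an adjusted p under 0.10, and 3 (without sMaf CKO replicate 1) to 294 (without sMaf CKO replicate 3) with an array left out. The pathway's 0 calls became 2, Elovl3 and Fads3, with median scaling, probes above background on all arrays, the replicate block, the slide block, within slide 1, array weights and an adjusted p under 0.10. They became 1 with spike-in scaling (Elovl3) and with trended robust eBayes (Fads3), and 0 to 2 with an array left out, the 2 arising without sMaf CKO replicate 3.

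Step medians moved beyond the array spread in the following cases. Desaturation moved to 0.034 (quantile), -0.043 (spike-in) and -0.025 (without control replicate 1). With any other array left out its median was -0.55 to -0.29, within the spread. Acyl-CoA activation moved to -0.10 (spike-in) and -0.12 (within slide 2), and esterification to 0.059 (spike-in). Signs turned under spike-in scaling, which raises every gene alike, for Elovl6 (0.034), Lpin2 (0.15), Lpin3 (0.25), Mogat1 (0.14) and Mlxipl (0.057). They turned under quantile normalization for Scd1 (0.034) and Lpin2 (0.14), under normexp for Lpin3 (0.000849) and with averaged probes for Agpat1 (-0.066) and Agpat3 (-0.10). Within slide 1 they turned for Agpat3 (-0.030), Lpin3 (0.00494) and Pnpla3 (-0.20), and within slide 2 for Fasn (0.057), Elovl6 (0.22), Gpam (0.021) and Mafk (-0.29). Maff was -0.28 with array weights. With an array left out, values ran from -0.47 to 0.037 for Elovl6, -0.078 to 0.22 for Agpat3, -0.18 to 0.068 for Lpin3, -0.35 to 0.028 for Mogat1, -0.52 to 0.15 for Mlxipl, -0.45 to 0.62 for Pnpla3, -0.37 to 0.52 for Maff and -0.070 to 0.44 for Mafk. The causes were not tested.

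The labels do not say that a replicate number pairs animals, so the numbers were not taken to do so. Deviations of same-numbered samples correlated at 0.063, 0.17 and 0.42 for replicates 1, 2 and 3. sMaf CKO sample 1 correlated better with control 2 (0.29), whereas sMaf CKO samples 2 and 3 correlated best with the control of their own number. Replicate 3 of both genotypes also shared slide 2.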
